A study of Penicillium oxalicum with 10 samples.

Results

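The 32 genes described here are those that the annotation of Penicillium oxalicum names for fatty acid oxidation or for building peroxisomes. They were found among 9859 genes by searching the product description and the KEGG Orthology text for acyl-CoA dehydrogenase, acyl-CoA oxidase, enoyl-CoA hydratase, 3-hydroxyacyl-CoA, acetyl-CoA acyltransferase, carnitine, long-chain acyl-CoA synthetase or peroxin. All 32 were found by the KEGG text, since their product column reads hypothetical protein. They comprise 3 acyl-CoA synthetases, 6 genes of the carnitine system, 2 acyl-CoA oxidases, 3 acyl-CoA dehydrogenases, 1 enoyl-CoA hydratase, 2 (3R)-3-hydroxyacyl-CoA dehydratases, 2 thiolases and 13 peroxins. 31 of them had a mean of at least 1 RPKM over the libraries, as had 9134 of all genes. RPKM is a read count divided by the length of the gene and by the read total of the library, so levels of different genes can be compared.

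Messenger RNA of P. oxalicum, a mould that secretes cellulases, was sequenced from mycelium in 10 libraries. The strain M12, the wild type, gave 1 library, and so did each of 9 strains whose genotype labels name a deleted gene. These are stuA, swi6, abaA, wetA and the 5 flb genes flbA to flbE, of which all but swi6 are named after regulators of asexual sporulation in Aspergillus. All strains were grown for 20 h at 30 °C from conidia in a modified Czapek medium with 2% glucose, and then for 48 h in new medium. The labels do not say what carbon source the new medium held, and no genotype has a second library. Values below therefore have no replicate error and no test between genotypes, and ranges in parentheses after a fold are 95% intervals for counting error only.

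Fatty acids are broken down by beta-oxidation, which shortens an activated acyl chain by repeated oxidation, hydration, oxidation and thiolytic cleavage and releases acetyl-CoA. In Aspergillus nidulans, a related mould, this takes place both in peroxisomes, where acyl-CoA oxidases start each round and make hydrogen peroxide, and in mitochondria, where acyl-CoA dehydrogenases do so. Carnitine carries acetyl and acyl groups between the compartments. Peroxisomes lack DNA, and peroxins import their enzymes from the cytosol and insert their membrane proteins.

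Read totals were lowest in the flbA deletion library and 2.45-fold higher in that labelled flbD deletion. The FlbD gene by annotation (PDE_03008) stood at 327 RPKM in the library labelled flbD deletion, against 341 RPKM in wild type. PDE_02932, a TEA-family gene matched to AbaA only once its levels were known, stood at 59.1 RPKM in the library labelled abaA deletion, against 28.5 RPKM in wild type. These values go against both labels, so directions for these 2 libraries hold for the libraries as labelled. PDE_04095, named after SOK2, a yeast relative of StuA, and likewise matched with its values known, had 1 read in the stuA deletion library and 3725 reads in wild type. PDE_08896, a chromobox protein paired with swi6 in the same way, since fission yeast Swi6 is of that type, had 1 read in the swi6 deletion library, and wild type had 164. The targeted genes of the other 5 strains were not analysed here. The unnamed gene PDE_06605 took 27.9% of the reads of the flbA deletion library, 7.73% of those of wild type and 0.0738% of those of the stuA deletion library, and RPKM of all other genes is set by what is left. The median difference from wild type over all kept genes was between -0.64 (flbA deletion) and 0.12 (flbC deletion) on the log2(RPKM + 1) scale. Median-of-ratios scaling, which sets libraries level on their typical gene, is therefore given beside RPKM for the main counts of members. For the other genes of lipid and acyl-CoA metabolism it is given in part, and counts without it hold for RPKM only.

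Single enzymes of the oxidation step differed from wild type by up to 11.4-fold. The share of members 2-fold apart in at least 1 library was near that of all genes, and the shares of 2-fold differences were below those of all genes. Of 279 differences (31 members in 9 deletion libraries), 24 were at least 2-fold higher and 38 at least 2-fold lower, or 8.60% and 13.6%, against 12.5% and 18.1% over all kept genes. 23 of the 31 members were 2-fold apart from wild type in at least 1 library, which 73.8% of all kept genes were too. No member was 2-fold lower in all 9 deletion libraries (2.23% of all kept genes) or 2-fold higher in all 9 (1.28%). The 9 differences share the single wild-type library, and in RNA of whole mycelium fewer cells of a kind and less RNA per cell cannot be told apart. Calls were made on the log2(RPKM + 1) scale, so a fold of RPKM just over 2 may lie under the threshold.

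By library, 5 members were at least 2-fold higher in the flbA deletion library, where 9.8% of all kept genes were, and 8 were lower, where 37.4% were. In the flbC deletion library 5 members were higher (background 14.6%) and 1 was lower (8.85%). The stuA deletion library had 4 higher (13.3%) and 0 lower (14.6%), and the swi6 deletion library 3 higher (11%) and 3 lower (11.9%). These 4 libraries hold all 10 higher calls of the oxidases and dehydrogenases described below. Lower members outnumbered higher ones in the flbB deletion library, with 1 higher (12%) and 6 lower (23%), and in the flbE deletion library, with 1 (10.9%) and 7 (21.2%). The same held in the wetA deletion library, with 3 (13.8%) and 7 (20.9%), and in the library labelled flbD deletion, with 1 (11.7%) and 5 (12.7%). The library labelled abaA deletion had 1 member higher (15.2%) and 1 lower (12.3%), both shares below the background.

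**Figure D1:**
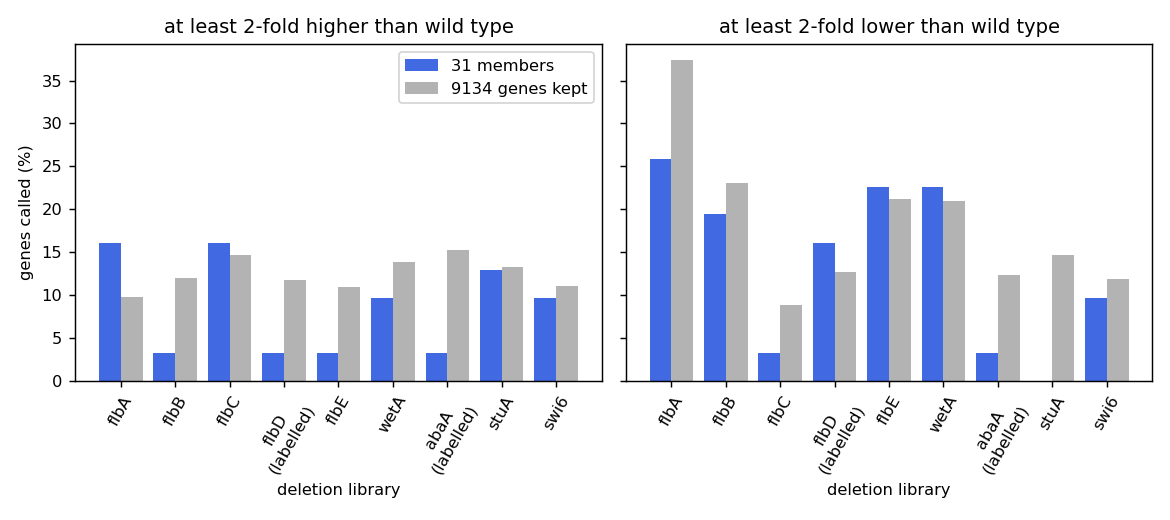
Share of genes at least 2-fold higher (left) or lower (right) than wild type in each deletion library, in percent, for the 31 kept members (blue) and all 9134 kept genes (grey). The member bars lie at or below the grey bars in most libraries, with 16.1% against 9.80% higher in the flbA deletion library as the widest gap upward.

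Scaling decided much of the lower side. Under median-of-ratios scaling 39 of the 62 calls were kept and 23 no longer reached 2-fold, all of them lower calls, while 9 were gained and 0 called differences changed sign. The gained calls were all higher. They were PDE_06028 and the peroxins PDE_04710, PDE_09752 and PDE_00850 in the flbA, PDE_09144 and PDE_08405 in the flbB and PDE_04643 in the flbE deletion library, and PDE_03757 and PDE_04643 in the library labelled flbD deletion. Higher and lower members then numbered 9 and 5 in the flbA deletion library (backgrounds 20.4% and 23.1%), 3 and 3 in the flbB (17.5% and 12.7%), 2 and 1 in the flbE (15.9% and 11.4%) and 3 and 2 in the wetA deletion library (18.1% and 14.7%). They were 3 and 1 in the library labelled flbD deletion (14% and 9.61%) and 3 and 1 in the swi6 deletion library (13.5% and 9.45%). The member counts in the flbC and stuA deletion libraries and in the library labelled abaA deletion were the same as by RPKM, at backgrounds of 12.6% and 9.9% (flbC), 15.8% and 11.7% (stuA) and 14.6% and 12.2% (labelled abaA). After subtracting the all-gene median, the median member differed from wild type by 0.40 on the log2 scale in the flbA, 0.30 in the flbC and 0.21 in the stuA deletion library. In the other 6 libraries it lay between -0.16 (labelled abaA deletion) and 0.02 (flbE deletion).

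**Figure D2:**
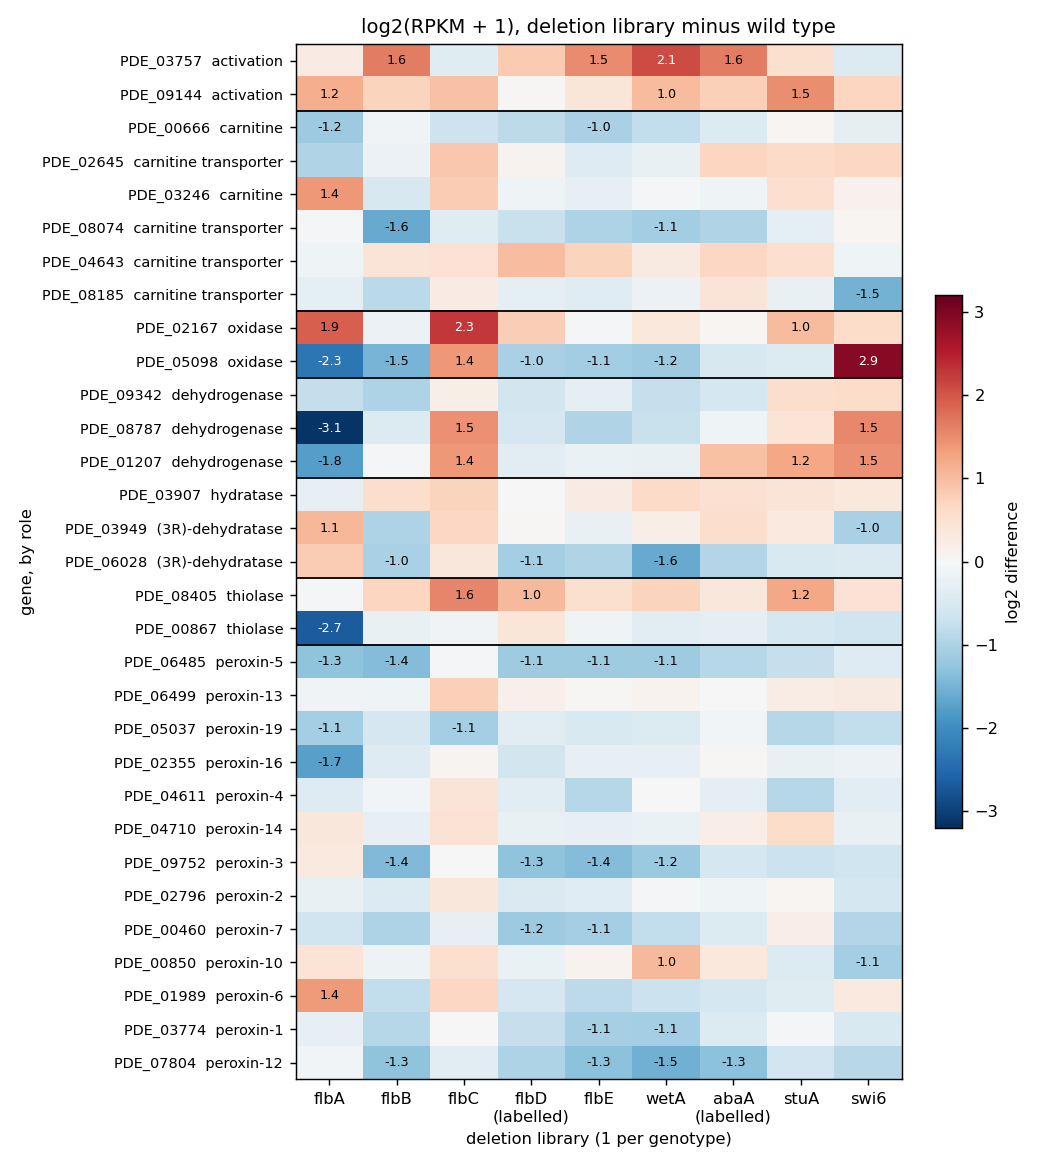
Difference in log2(RPKM + 1) between each deletion library and wild type (columns) for the 31 kept members (rows, grouped by role with black lines). Red is higher and blue lower than wild type, and differences of at least 1 are printed. The deepest colours are in the oxidase and dehydrogenase rows, such as 2.91 for PDE_05098 in the swi6 and -3.13 for PDE_08787 in the flbA deletion library.

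Fatty acids enter the pathway through acyl-CoA synthetases, which join a free fatty acid to coenzyme A. Of the 3 genes named for this step, PDE_03757 had the highest mean level of all 32 members. It had 207 RPKM in wild type, 247 (flbA), 647 (flbB), 157 (flbC), 595 (flbE), 882 (wetA), 295 (stuA) and 151 RPKM (swi6) in the deletion libraries, and 372 and 649 RPKM in those labelled flbD and abaA deletion. The level was highest in the wetA deletion library, 4.27-fold higher (4.08 to 4.47) than in wild type, and it was also more than 2-fold higher in the flbB and flbE deletion libraries and in the library labelled abaA deletion. The flbC and swi6 deletion libraries were the only ones below wild type, and the highest library exceeded the lowest by 5.82-fold (5.54 to 6.12).

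The second synthetase, PDE_09144, was the only member above wild type in all 9 deletion libraries by RPKM, where 7.61% of all kept genes were. It had 52.8 RPKM in wild type, 120.3 (flbA), 87.0 (flbB), 102 (flbC), 69.0 (flbE), 107 (wetA), 149 (stuA) and 86.3 RPKM (swi6) in the deletion libraries, and 54.7 and 90.0 RPKM in those labelled flbD and abaA deletion. The largest fold was 2.82-fold higher (2.57 to 3.09) in the stuA deletion library, followed by 2.28-fold higher (2.04 to 2.54) in the flbA deletion library. The library labelled flbD deletion lay nearest to wild type, at 1.04-fold higher (0.932 to 1.15), an interval that includes no change. With median-of-ratios scaling it was above in all 9 too, and PDE_02167, PDE_03907, PDE_04643 and PDE_08405, each below wild type somewhere by RPKM, were then also above in all 9, as were 14.4% of all kept genes. The third synthetase, PDE_00022, had at most 18 reads in a library (stuA deletion), and is the member with a mean under 1 RPKM. It had 0 reads in the swi6 deletion library, which allows up to 0.301 RPKM.

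In the carnitine system, 2 carnitine O-acetyltransferases, which pass acetyl groups between coenzyme A and carnitine, went in opposite directions in the flbA deletion library. PDE_00666 had 226 RPKM in wild type, 100.2 (flbA), 208 (flbB), 141 (flbC), 109 (flbE), 129 (wetA), 235 (stuA) and 185 RPKM (swi6) in the deletion libraries, and 126 and 165 RPKM in those labelled flbD and abaA deletion. It was 2.25-fold lower (2.08 to 2.44) in the flbA deletion library and 2.07-fold lower (1.95 to 2.19) in the flbE deletion library, and neither difference reached 2-fold with median-of-ratios scaling (-0.44 and -0.65 on the log2 scale). PDE_03246 had 41.8 RPKM in wild type, 112 (flbA), 28.8 (flbB), 73.7 (flbC), 34.5 (flbE), 39.8 (wetA), 60.9 (stuA) and 46.5 RPKM (swi6) in the deletion libraries, and 37.8 and 38.0 RPKM in those labelled flbD and abaA deletion. It was 2.68-fold higher (2.36 to 3.03) in the flbA deletion library, its highest level, and stayed within 2-fold of wild type in the other 8. In wild type PDE_00666 exceeded PDE_03246 226 to 41.8 RPKM, while in the flbA deletion library PDE_03246 was the higher, 112 to 100.2 RPKM.

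The other 4 genes of this group are named mitochondrial carnitine/acylcarnitine transporters, which exchange carnitine and its esters across the inner membrane. PDE_02645 had 48.6 RPKM in wild type, 24.7 (flbA), 42.7 (flbB), 88.8 (flbC), 36.0 (flbE), 41.0 (wetA), 75.0 (stuA) and 77.3 RPKM (swi6) in the deletion libraries, and 52.4 and 78.3 RPKM in those labelled flbD and abaA deletion. It was lowest in the flbA deletion library, at 1.97-fold lower (1.50 to 2.61), and no library was 2-fold apart from wild type, although the highest exceeded the lowest by 3.60-fold (2.78 to 4.72). PDE_08074 had 63.5 RPKM in wild type against 20.0 in the flbB deletion library, which is 3.18-fold lower (2.59 to 3.92). The wetA deletion library was 2.20-fold lower (1.83 to 2.65), a call that median-of-ratios scaling ended (-0.83). PDE_04643 ranged from 15.5 to 34.8 RPKM, highest in the library labelled flbD deletion, with 17.2 in wild type. It had no call by RPKM, and with median-of-ratios scaling it was a higher call in that library (1.15) and in the flbE deletion library (1.09). PDE_08185 was the weakest of the 4, with 6.24 RPKM in wild type and 1.53 RPKM from 8 reads in the swi6 deletion library, which is 4.08-fold lower (1.83 to 10.3).

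The first oxidation step held the members that differed most between genotypes. The acyl-CoA oxidase PDE_05098, named after a peroxisomal enzyme that starts a round of beta-oxidation, had 7.02 RPKM in wild type, 0.613 (flbA), 1.86 (flbB), 20.0 (flbC), 2.68 (flbE), 2.59 (wetA), 4.88 (stuA) and 59.3 RPKM (swi6) in the deletion libraries, and 2.88 and 4.66 RPKM in those labelled flbD and abaA deletion. These levels run from 4 reads in the flbA deletion library to 699 reads in the swi6 deletion library, a range of 96.7-fold (37.6 to 356). It was 8.45-fold higher (6.66 to 10.8) than wild type in the swi6 and 2.85-fold higher (2.17 to 3.77) in the flbC deletion library. It was 11.4-fold lower (4.29 to 43.1) in the flbA and 3.77-fold lower (2.40 to 6.08) in the flbB deletion library. It was also over 2-fold lower in the flbE and wetA deletion libraries and the library labelled flbD deletion, which median-of-ratios scaling brought to -0.80, -0.92 and -0.88 on the log2 scale. In the swi6 deletion library it stood more than 2-fold above every other library, as did 1.88% of all kept genes.

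The second oxidase, PDE_02167, had 12.3 RPKM in wild type, 48.6 (flbA), 10.7 (flbB), 62.3 (flbC), 11.999 (flbE), 15.7 (wetA), 25.6 (stuA) and 19.0 RPKM (swi6) in the deletion libraries, and 21.9 and 12.8 RPKM in those labelled flbD and abaA deletion. Unlike PDE_05098 it was high in the flbA deletion library, 3.96-fold higher (3.22 to 4.89) than wild type, while the flbC deletion library was the highest at 5.08-fold higher (4.19 to 6.18). The flbB and flbE deletion libraries were the only ones below wild type, at 1.15-fold lower (0.902 to 1.46) and 1.02-fold lower (0.811 to 1.29), and both intervals include no change. Both lay above wild type with median-of-ratios scaling (0.20 and 0.34 on the log2 scale). So the 2 oxidases were both high in the flbC deletion library, and in the flbA deletion library PDE_02167 had 48.6 RPKM against 0.613 for PDE_05098. In the swi6 deletion library the order was the reverse, with 19.0 RPKM for PDE_02167 and 59.3 for PDE_05098.

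**Figure D3:**
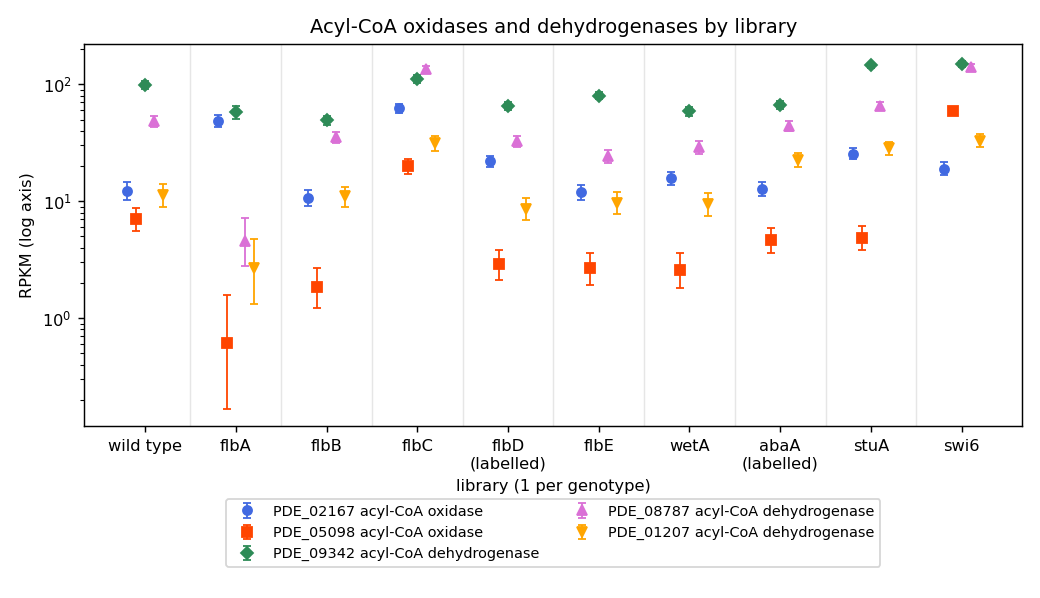
RPKM (log axis) of the 2 acyl-CoA oxidases and 3 acyl-CoA dehydrogenases in the 10 libraries, 1 point per gene and library with exact Poisson 95% bars for counting error. PDE_05098, PDE_08787 and PDE_01207 are lowest in the flbA deletion library (0.613, 4.62 and 2.66 RPKM) and highest in the swi6 deletion library (59.3, 141 and 33.1 RPKM).

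Acyl-CoA dehydrogenases carry out the same chemical step with a flavin that hands its electrons to the electron transfer flavoprotein. PDE_09342 and PDE_01207 are annotated to the orthology group K00249 (EC 1.3.8.7). PDE_08787 is in another group, K15389, named acyl-CoA dehydrogenase without an enzyme number. PDE_08787 had 48.3 RPKM in wild type, 4.62 (flbA), 35.2 (flbB), 135 (flbC), 24.2 (flbE), 29.1 (wetA), 65.9 (stuA) and 141 RPKM (swi6) in the deletion libraries, and 32.8 and 43.9 RPKM in those labelled flbD and abaA deletion. The flbC and swi6 deletion libraries were the highest, at 2.80-fold higher (2.46 to 3.19) and 2.92-fold higher (2.58 to 3.32), and the flbA deletion library, with 19 reads, was 10.5-fold lower (6.59 to 17.6). PDE_01207 had 11.4 RPKM in wild type, 2.66 (flbA), 11.0 (flbB), 31.4 (flbC), 9.71 (flbE), 9.42 (wetA), 28.4 (stuA) and 33.1 RPKM (swi6) in the deletion libraries, and 8.60 and 22.7 RPKM in those labelled flbD and abaA deletion. It was 2.91-fold higher (2.25 to 3.80) in the swi6, 2.76-fold higher (2.11 to 3.65) in the flbC and 2.50-fold higher (1.94 to 3.26) in the stuA deletion library, and 4.27-fold lower (2.26 to 8.91) in the flbA deletion library. Both genes stood more than 2-fold below every other library in the flbA deletion library, as did 4 of the 31 members and 13.8% of all kept genes. PDE_09342, the most abundant of the 3 in most libraries, had 98.7 RPKM in wild type, 57.9 (flbA), 49.2 (flbB), 112 (flbC), 79.9 (flbE), 58.9 (wetA), 145 (stuA) and 148 RPKM (swi6) in the deletion libraries, and 65.4 and 66.3 RPKM in those labelled flbD and abaA deletion. Its 3 highest libraries were the swi6, stuA and flbC deletion libraries, as for the other 2 dehydrogenases. No difference was called, the lowest library (flbB deletion) being 2.01-fold lower (1.78 to 2.26) in RPKM and just under the threshold on the log2(RPKM + 1) scale.

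The 3 dehydrogenases, PDE_08787 of the other orthology group included, summed to 158 RPKM in wild type. In the deletion libraries they summed to 65.2 (flbA), 278 (flbC), 239.6 (stuA) and 323 RPKM (swi6). The 2 oxidases summed to 19.3 RPKM in wild type and, in the deletion libraries, to 49.2 (flbA), 82.3 (flbC), 30.5 (stuA) and 78.3 RPKM (swi6). The flbA deletion library was thus below wild type in summed dehydrogenases and above it in summed oxidases, the latter through PDE_02167. The share of PDE_06605 and the low depth of the flbA deletion library move with these values and their part was not tested. These 3 genes stayed more than 2-fold below wild type there after median-of-ratios scaling, at -2.49 for PDE_08787, -1.90 for PDE_05098 and -1.17 for PDE_01207 on the log2 scale.

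The enoyl-CoA hydratase PDE_03907, which adds water in the second step, varied little, with 65.8 RPKM in wild type, 55.0 (flbA), 98.2 (flbB), 109 (flbC), 78.8 (flbE), 102 (wetA), 88.5 (stuA) and 83.8 RPKM (swi6) in the deletion libraries, and 66.6 and 92.3 RPKM in those labelled flbD and abaA deletion. No library was 2-fold from wild type, and the highest (flbC deletion) exceeded the lowest (flbA deletion) by 1.98-fold (1.64 to 2.40). The search term 3-hydroxyacyl-CoA took 2 genes named very-long-chain (3R)-3-hydroxyacyl-CoA dehydratase, which serve the elongation of fatty acids and not their breakdown. PDE_03949 had 22.4 RPKM in wild type, was 2.15-fold higher (1.59 to 2.91) in the flbA deletion library while the swi6 deletion library was 2.15-fold lower (1.46 to 3.21), the latter -0.85 on the log2 scale with median-of-ratios scaling. PDE_06028 had 8.51 RPKM in wild type, its highest value of 15.6 in the flbA deletion library and its lowest of 2.13 in the wetA deletion library, 3.99-fold lower (1.83 to 9.62). Both dehydratases were therefore at their highest in the flbA deletion library, where PDE_08787, PDE_01207 and PDE_05098 were at their lowest.

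The last step is cleavage by a thiolase, and the 2 genes named acetyl-CoA acyltransferase differed in level and pattern. PDE_08405 had 109 RPKM in wild type, 106 (flbA), 177 (flbB), 326 (flbC), 156 (flbE), 179.7 (wetA), 259 (stuA) and 152 RPKM (swi6) in the deletion libraries, and 226 and 139.7 RPKM in those labelled flbD and abaA deletion. It was 2.98-fold higher (2.73 to 3.26) in the flbC and 2.37-fold higher (2.18 to 2.58) in the stuA deletion library and 2.07-fold higher (1.90 to 2.26) in the library labelled flbD deletion, and only the flbA deletion library lay below wild type, at 1.03-fold lower (0.912 to 1.17), an interval that includes no change, and it lay above with median-of-ratios scaling (0.68). PDE_00867 had 20.2 RPKM in wild type, 2.34 (flbA), 16.8 (flbB), 18.5 (flbC), 18.2 (flbE), 15.8 (wetA), 13.3 (stuA) and 12.5 RPKM (swi6) in the deletion libraries, and 26.6 and 16.1 RPKM in those labelled flbD and abaA deletion. It stayed within 2-fold of wild type except in the flbA deletion library, where 9 reads made it 8.64-fold lower (4.41 to 19.3), more than 2-fold below every other library.

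**Figure D4:**
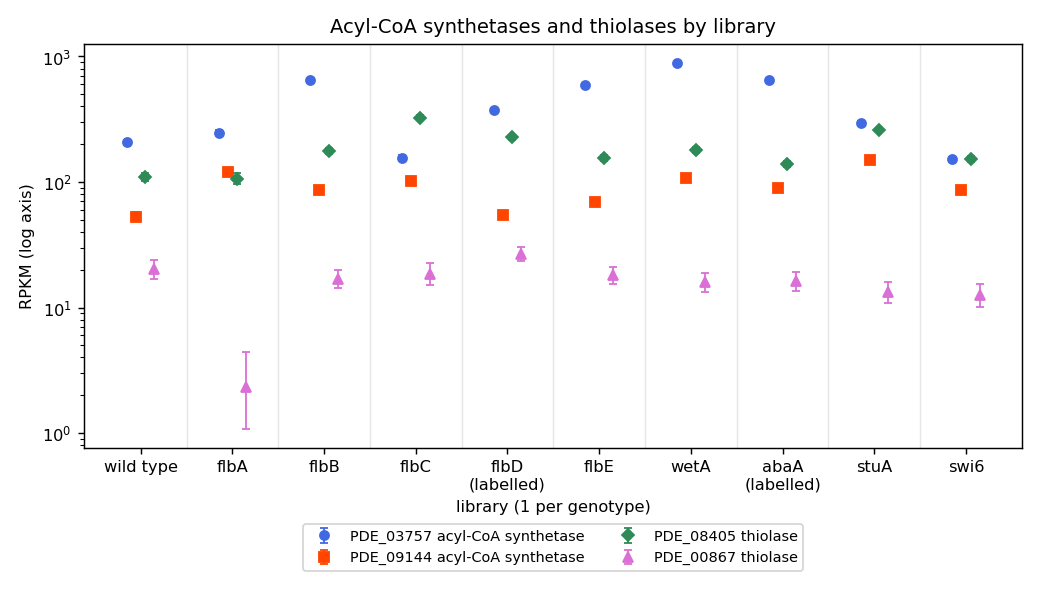
RPKM (log axis) of the 2 kept acyl-CoA synthetases and the 2 thiolases in the 10 libraries, 1 point per gene and library with exact Poisson 95% bars for counting error, which are smaller than many of the symbols. PDE_03757 is highest in the wetA deletion library (882 RPKM), and PDE_00867 is lowest in the flbA deletion library (2.34 RPKM).

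Peroxins were mostly below wild type. Of 117 differences (13 genes in 9 libraries), 89 were below and 21 at least 2-fold lower, with 2 at least 2-fold higher, or 17.9% lower against 18.1% over all kept genes. The share of 2-fold lower calls was thus near the background, while 76.1% were below wild type at all, against 59.2% over all kept genes. With median-of-ratios scaling 76 were below, 7 were 2-fold lower and 5 2-fold higher, when 12.8% and 15.8% of all differences were. In the flbB deletion library 13 of 13 were below wild type by RPKM and 9 with that scaling, and in the flbA deletion library 9 and 3, so the direction of peroxins in the flbA deletion library turns with the scaling. The median of all kept genes was also below wild type there by RPKM, at -0.40 (flbB) and -0.64 (flbA). It came to -0.01 and 0.01 with that scaling. Most kept genes were thus below wild type by RPKM in both libraries. Their share below wild type by library, or with that scaling, is not given. Summed RPKM was 519.7 in wild type, 393 (flbA), 326 (flbB), 558 (flbC), 329 (flbE), 381 (wetA), 414 (stuA) and 393 (swi6) in the deletion libraries. It was 343 and 421 RPKM in the libraries labelled flbD and abaA deletion.

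The import receptors carry enzymes with a targeting signal to the peroxisome. Peroxin-5 (PDE_06485), the receptor for the common carboxy-terminal signal, had 105 RPKM in wild type, 42.7 (flbA), 39.4 (flbB), 101 (flbC), 47.3 (flbE), 46.8 (wetA), 62.8 (stuA) and 78.2 RPKM (swi6) in the deletion libraries, and 47.1 and 55.5 RPKM in those labelled flbD and abaA deletion. Wild type was the highest and the flbC deletion library was close to it, at 1.04-fold lower (0.945 to 1.14), while the flbB deletion library was the lowest, 2.67-fold lower (2.40 to 2.97). All 5 of its 2-fold lower calls ended with median-of-ratios scaling, where it lay in those 5 libraries between -0.99 in the flbB and -0.57 in the flbA deletion library. Peroxin-7 (PDE_00460), the receptor for the amino-terminal signal, ranged from 13.7 in the library labelled flbD deletion to 37.5 RPKM in the stuA deletion library, with 32.0 in wild type. Both receptors together summed to 137 RPKM in wild type, 128 in the flbC and 55.1 in the flbB deletion library.

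Peroxin-13 and peroxin-14 form the docking site for the loaded receptors and had 0 calls by RPKM in 18 differences. Over all kept genes 12.5% of differences were 2-fold higher and 18.1% lower. The import receptors had 7 lower calls by RPKM in 18 differences. Of these, the 2 of peroxin-7 (library labelled flbD deletion and flbE deletion library) came to -0.99 and -0.70 on the log2 scale with median-of-ratios scaling. With median-of-ratios scaling peroxin-14 in the flbA deletion library was a higher call, at 1.08 on the log2 scale. Peroxin-13 (PDE_06499) had 49.9 RPKM in wild type, 45.8 (flbA), 45.4 (flbB), 84.8 (flbC), 50.8 (flbE), 54.4 (wetA), 58.6 (stuA) and 60.6 RPKM (swi6) in the deletion libraries, and 55.5 and 50.1 RPKM in those labelled flbD and abaA deletion. Its range over the libraries was 1.87-fold (1.64 to 2.13), with the flbC deletion library at the top. Peroxin-14 (PDE_04710) ranged from 25.5 to 46.8 RPKM, highest in the stuA deletion library. In the flbB, flbE and wetA deletion libraries and that labelled flbD deletion, summed docking peroxins had 70.9, 76.5, 80.7 and 81.4 RPKM against 80.6 in wild type. The import receptors had 55.1, 61.9, 65.0 and 60.8 RPKM there, so that their summed level, above that of the docking peroxins in wild type, lay below it in these 4 libraries. It lay below also in the flbA and stuA deletion libraries and that labelled abaA deletion, and above in the swi6 deletion library. In the flbC deletion library the 2 sums were level, at 128.1 RPKM (import receptors) and 127.9 RPKM (docking).

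Peroxin-2, peroxin-10 and peroxin-12 are RING-type ubiquitin ligases that mark the receptors for return to the cytosol. They act as a complex, and the order of their levels over the libraries differed. Peroxin-12 (PDE_07804) had 20.7 RPKM in wild type, 19.5 (flbA), 7.82 (flbB), 15.9 (flbC), 7.79 (flbE), 6.52 (wetA), 13.3 (stuA) and 10.8 RPKM (swi6) in the deletion libraries, and 9.93 and 7.75 RPKM in those labelled flbD and abaA deletion. It was below wild type in all 9 deletion libraries by RPKM, though 0.62 on the log2 scale in the flbA deletion library with median-of-ratios scaling, and lowest at 3.17-fold lower (2.36 to 4.31) in the wetA deletion library. Peroxin-10 (PDE_00850) was instead highest there, at 31.5 RPKM and 2.12-fold higher (1.66 to 2.74), and lowest in the swi6 deletion library, at 6.50 RPKM and 2.28-fold lower (1.56 to 3.38), which median-of-ratios scaling brought to -0.89 on the log2 scale. Peroxin-2 (PDE_02796) ranged from 16.7 to 32.6 RPKM with no call.

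The recycling step uses peroxin-4, a ubiquitin-conjugating enzyme, and the ATPases peroxin-1 and peroxin-6, which pull the receptors out of the membrane as a complex. Peroxin-6 (PDE_01989) had 13.1 RPKM in wild type, 35.1 (flbA), 7.18 (flbB), 21.3 (flbC), 6.91 (flbE), 7.73 (wetA), 9.84 (stuA) and 16.5 RPKM (swi6) in the deletion libraries, and 8.82 and 8.52 RPKM in those labelled flbD and abaA deletion. It was highest in the flbA deletion library, 2.67-fold higher (2.31 to 3.10) than wild type, the only peroxin 2-fold higher there by RPKM. Its partner peroxin-1 (PDE_03774) had 18.3 RPKM in wild type and 15.1 in the flbA deletion library, and was 2.23-fold lower (1.88 to 2.65) in the flbE and 2.25-fold lower (1.89 to 2.70) in the wetA deletion library, neither at 2-fold with median-of-ratios scaling (-0.70 and -0.81). Peroxin-4 (PDE_04611) ranged from 22.2 to 57.5 RPKM, lowest in the stuA and flbE deletion libraries, with 42.6 in wild type and no call.

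Peroxin-3, peroxin-16 and peroxin-19 place proteins in the peroxisome membrane, peroxin-19 as the soluble chaperone and peroxin-3 as its anchor. Peroxin-3 (PDE_09752) had 43.8 RPKM in wild type, 54.4 (flbA), 15.7 (flbB), 43.7 (flbC), 16.0 (flbE), 18.7 (wetA), 26.8 (stuA) and 27.7 RPKM (swi6) in the deletion libraries, and 17.3 and 29.6 RPKM in those labelled flbD and abaA deletion. Wild type and the flbA and flbC deletion libraries formed its high end, and the flbB, flbE and wetA deletion libraries with that labelled flbD deletion its low end, at 2.79-fold lower (2.34 to 3.34) in the flbB deletion library. With median-of-ratios scaling the call in the wetA deletion library ended (-0.90), and the flbA deletion library came to 1.02 on the log2 scale, a higher call that RPKM did not give. Peroxin-16 (PDE_02355) had 55.0 RPKM in wild type and was lowest in the flbA deletion library, 15.9 RPKM or 3.46-fold lower (2.60 to 4.66), more than 2-fold below every other library. Peroxin-19 (PDE_05037) had 68.7 RPKM in wild type, 31.8 (flbA), 47.1 (flbB), 31.9 (flbC), 48.3 (flbE), 50.6 (wetA), 36.2 (stuA) and 39.4 RPKM (swi6) in the deletion libraries, and 54.4 and 65.0 RPKM in those labelled flbD and abaA deletion. It was below wild type in all 9 deletion libraries, as were peroxin-5 and peroxin-12 alone among the 31 members, against 17.9% of all kept genes. With median-of-ratios scaling peroxin-19 and peroxin-5 were so, against 12.3% of all kept genes. Its values were lowest in the flbA and flbC deletion libraries, 2.16-fold lower (1.73 to 2.72) and 2.15-fold lower (1.77 to 2.63), and the first of these came to -0.38 on the log2 scale with median-of-ratios scaling.

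**Figure D5:**
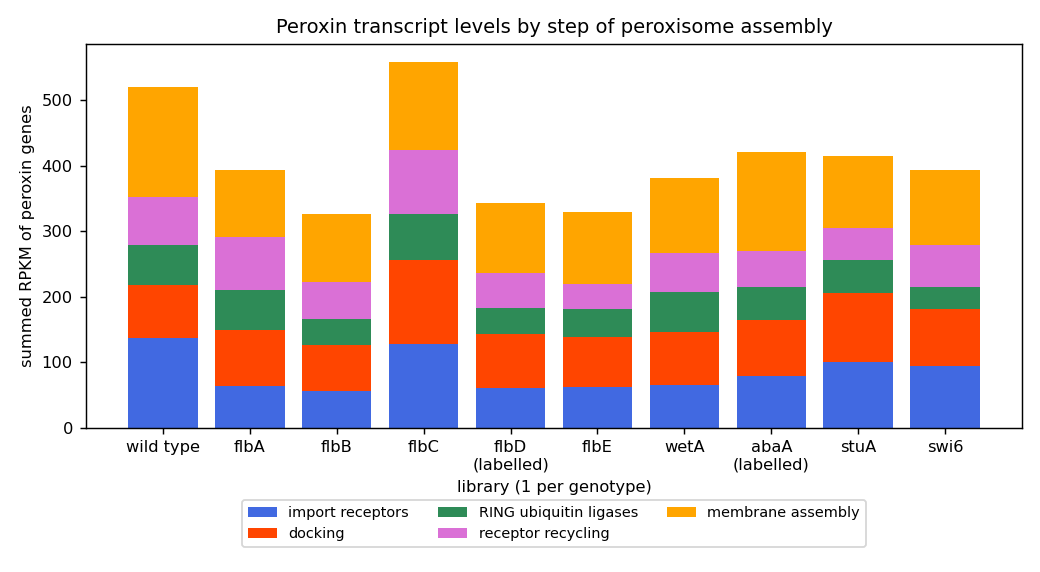
Summed RPKM of the 13 peroxin genes in each library, stacked by step of peroxisome assembly (1 library per genotype, no error bars). The flbC deletion library has the highest sum (558 RPKM) and the flbB deletion library the lowest (326 RPKM), and the bottom segment, the import receptors, is larger in wild type and the flbC deletion library than elsewhere.

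Across roles the libraries at the extremes differed. The flbC deletion library was the highest for 9 of 31 members, 29.0% against 19.7% of all kept genes. It was the lowest for none, against 2.12% of all kept genes. The library labelled abaA deletion was likewise the lowest for none, against 1.23%. The flbA deletion library was the lowest for 11 members, 35.5% against 43.8%, and the flbB deletion library for 8, 25.8% against 12.03%. The median member spanned 1.68 on the log2 scale between its lowest and highest library, the median peroxin 1.39 and the median kept gene 1.88.

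The other genes of lipid and acyl-CoA metabolism were taken by text patterns in the same annotation, chosen with earlier results of these data known. Among these, 2 genes are named isocitrate lyase and 1 malate synthase, the enzymes of the glyoxylate cycle that turns acetyl-CoA from fat into precursors of sugar. The pattern also took 2 methylisocitrate lyases and a 2-isopropylmalate synthase, which do not belong to that cycle. Of the 54 differences of these 6 genes, 15 were 2-fold higher and 9 lower by RPKM, or 27.8% and 16.7%, against the 12.5% and 18.1% of all kept genes. Malate synthase (PDE_03483) had 114 RPKM in wild type, 111 (flbA), 739 (flbB), 261 (flbC), 1109 (flbE), 393 (wetA), 536 (stuA) and 408 RPKM (swi6) in the deletion libraries, and 491 and 425 RPKM in those labelled flbD and abaA deletion. It was more than 2-fold higher than wild type in every deletion library but that of flbA, up to 9.72-fold higher (9.10 to 10.4) in the flbE deletion library. The methylisocitrate lyase PDE_06062, after an enzyme of propionate breakdown, went the other way with 5601 RPKM in wild type, 485 (flbA), 2539.7 (flbB), 27.8 (flbC), 789 (flbE), 367 (wetA), 1780.2 (stuA) and 34.2 RPKM (swi6) in the deletion libraries, and 378 and 804 RPKM in those labelled flbD and abaA deletion. All 9 lower calls of the glyoxylate pattern by RPKM are those of this gene, and the call in the flbB deletion library ended with median-of-ratios scaling. The methylcitrate list, with 3 genes of which 2 are shared with that pattern, had 9 lower calls of 27 by RPKM, again all from PDE_06062. It had 1 higher call by RPKM, PDE_05337 in the stuA deletion library at 2.45-fold higher (1.96 to 3.07).

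Auxiliary enzymes and electron carriers of beta-oxidation formed a list of 9 genes, with 11 of 81 differences 2-fold higher and 3 lower, and 17 and 0 with median-of-ratios scaling. By RPKM these are 13.6% and 3.70%, against 12.5% and 18.1% over all kept genes, whose shares with median-of-ratios scaling were 15.8% and 12.8%. The genes for both subunits of the electron transfer flavoprotein (PDE_09222 and PDE_09735) and for its dehydrogenase (PDE_04700), the electron path from acyl-CoA dehydrogenases to respiration, were chosen for description after their values were seen. By RPKM they were within 2-fold of wild type in all 9 deletion libraries. In the flbA deletion library, where PDE_08787 was 10.5-fold lower, they had 132, 114 and 51.6 RPKM against 111, 82.2 and 42.2 in wild type. With median-of-ratios scaling 4 of the 9 list genes were 2-fold higher there, where 20.4% of all kept genes were. The list median was then 0.997 on the log2 scale, against 0.01 over all kept genes. Values of these 3 genes with that scaling are not given. The dienoyl-CoA isomerase PDE_02094, which handles unsaturated chains, had 12.3 RPKM in wild type and 101 in the wetA deletion library, 8.18-fold higher (6.18 to 11.0). An acyl-CoA thioester hydrolase (PDE_07776), which frees the acyl chain again, was 3.32-fold lower (2.20 to 5.21) in the flbA deletion library.

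Other peroxisome genes numbered 13, with 22 of 117 differences higher and 16 lower, and 30 and 5 with median-of-ratios scaling. All kept genes had 12.5% higher and 18.1% lower by RPKM, and 15.8% and 12.8% with that scaling. Among them PDE_07632 carries both a D-amino-acid oxidase and a nucleolar protein name. Urate oxidase (PDE_03841), which breaks down purines, had 41.4 RPKM in wild type, 84.4 (flbA), 845 (flbB), 902 (flbC), 757 (flbE), 1054 (wetA), 893 (stuA) and 227 RPKM (swi6) in the deletion libraries, and 749 and 1184 RPKM in those labelled flbD and abaA deletion. It was 2-fold or more above wild type in all 9 deletion libraries, the only gene of this list to be so. A catalase (PDE_01404), named after an enzyme that breaks down hydrogen peroxide, was 5.49-fold higher (4.68 to 6.46) in the flbA deletion library. It had 13.3 RPKM in the flbC deletion library against 17.6 in wild type. The catalases of the list were taken by that word, and their names give no compartment. The more abundant catalase-peroxidase PDE_07249, also picked with its levels known, had 567 RPKM in wild type and was 2.05-fold lower (1.95 to 2.16) in the flbA deletion library.

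Fatty acid synthesis, the opposite pathway, had 22 of 126 differences higher and 16 lower over 14 kept genes, and 32 and 11 with median-of-ratios scaling. The all-gene shares were 12.5% and 18.1% by RPKM and 15.8% and 12.8% with that scaling. In the flbA deletion library 7 of the 14 were 2-fold higher and 1 lower, where 9.8% and 37.4% of all kept genes were, with a median of 0.93 against -0.64 over all kept genes. With median-of-ratios scaling 10 were higher and 1 lower there, against 20.4% and 23.1%, with a median of 1.65 against 0.01. A fatty acid synthase alpha subunit (PDE_01217) had 35.5 RPKM in wild type and was 11.2-fold higher (10.4 to 11.96) in the swi6 and 3.51-fold higher (3.24 to 3.80) in the flbA deletion library. A stearoyl-CoA desaturase (PDE_02138), which introduces a double bond, had 29.1 RPKM in wild type, 19.8 in the flbC deletion library and 0 reads in the flbA, stuA and swi6 deletion libraries, which allows up to 1.09, 0.475 and 0.602 RPKM. Another stearoyl-CoA desaturase of the list, PDE_02205, described after its values were seen, was 2-fold higher in all 9 deletion libraries, with 117 RPKM in wild type and 4.94-fold higher (4.57 to 5.36) in the flbA deletion library. A further gene of that name, PDE_02641, had 0.920 RPKM in wild type, at most 1.78 RPKM (flbC deletion) and no call by RPKM.

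The breakdown of branched-chain amino acids uses its own acyl-CoA dehydrogenase and hydratase steps, and its list of 17 genes, which also holds aminotransferases that can serve synthesis, had more lower calls in the flbA deletion library than in any other. There 11 of 17 were 2-fold lower and 2 higher, where 37.4% and 9.8% of all kept genes were, with a median of -1.27 against -0.64 over all kept genes. With median-of-ratios scaling 7 were lower and 4 higher there, against 23.1% and 20.4%. Over all libraries the list had 23 of 153 differences higher and 24 lower, and 31 and 18 with median-of-ratios scaling. These stand beside all-gene shares of 12.5% and 18.1%, and of 15.8% and 12.8% with that scaling. The 2-oxoisovalerate dehydrogenase subunit PDE_09047 had 90.1 RPKM in wild type and was 9.04-fold lower (6.45 to 13.0) there. A hydroxymethylglutaryl-CoA lyase (PDE_04619), the last step of leucine breakdown, had 12.1 RPKM in wild type and was highest in the wetA deletion library, 8.29-fold higher (6.48 to 10.8). The other gene of that name in the list, PDE_03239, picked with its values known, had 89.6 RPKM in wild type and 75.3 in the wetA deletion library. Over the deletion libraries PDE_03239 had 0 higher calls and 1 lower call.

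Lipid release, the supply of free fatty acids, had 24 of 72 differences 2-fold lower and 8 higher over 8 kept genes by RPKM. These are 33.3% and 11.1%, against 18.1% and 12.5% over all kept genes. PDE_04497 gave 9 of the lower calls, PDE_09947 7 and PDE_06813 5, the last against only 1.77 RPKM from 8 reads in wild type. With median-of-ratios scaling the lower calls in the flbA deletion library went from 5 to 3, beside all-gene shares of 37.4% and 23.1%. The triacylglycerol lipase PDE_04497 was 2-fold lower in all 9 deletion libraries, with 54.4 RPKM in wild type, at most 21.5 RPKM elsewhere (labelled flbD deletion) and 0.317 RPKM, from 1 read, in the flbA deletion library. The lipase PDE_06813 reached 97.9 (flbC deletion) and 95.9 RPKM (swi6 deletion), while the other 8 libraries had 1.77 RPKM or less. The flbC and swi6 deletion libraries were also those with the highest levels of PDE_05098, PDE_08787 and PDE_01207.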

How the data were processed

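Per the file headers, the authors deposited, for every gene and library, a count of uniquely aligned reads, an RPKM value and the percent of the gene that reads covered, beside its length. CASAVA 1.8 is named in the submitters' processing notes, whereas the sources used here give no aligner, genome build or annotation version. Counts summed to the totals in the headers, and a dash was read as 0. Reads shared by near-identical genes are not in such counts. Differences are log2(RPKM + 1), deletion minus wild type, over genes with a mean of at least 1 RPKM, counted at 2-fold. Folds are RPKM ratios with exact conditional (Clopper-Pearson) 95% intervals. The depth, 3103231 to 7597848 reads per library, sets these intervals. With 1 library per genotype no test was possible. The calculation was tested on simulated data. Named genes were, per role, the 3 highest and the 3 most different members, members that stand apart from all other libraries or lie 2-fold from wild type in all 9, and the 2 most different genes of each other list. Further members are named to account for all 32. Members, lists and peroxin steps were chosen with earlier results of these data known. Alternatives were pseudocounts of 0.1 and 5, no filter or one at 5 RPKM, median-of-ratios scaling, comparison with the median library instead of wild type, and calls by the counting interval. Added after seeing the data were totals without PDE_06605, members without the (3R)-3-hydroxyacyl-CoA dehydratases, and 8 deletion libraries without that of flbA. Python 3.11.15, pandas 2.3.3 and SciPy 1.17.1 were used.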

Additional observations from a re-analysis of the deposited data

How the results depend on the processing

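No paired analysis was possible because each genotype has 1 library, and no library could be left out as a replicate. Relative to all genes, the median member stayed between 0.283 and 0.456 in the flbA, 0.279 and 0.316 in the flbC and 0.173 and 0.387 in the stuA deletion library over the alternatives. Not set against all genes, the median of -0.24 in the flbA deletion library became 0.46 with median-of-ratios scaling. No alternative turned the sign of a called largest difference of a named member, and the filter on low values, the choice of annotation text and leaving out the (3R)-3-hydroxyacyl-CoA dehydratases moved no count by over 1.5 times. Counts of 2-fold calls did move, and the cause was not tested beyond what each alternative changes. With median-of-ratios scaling members higher went from 5 to 9 (flbA), from 1 to 3 (flbB), from 1 to 3 (labelled flbD), from 1 to 2 (flbE). There, higher differences in other lists went from 11 to 17 (auxiliary beta-oxidation), from 1 to 2 (methylcitrate cycle). There, members lower went from 8 to 5 (flbA), from 6 to 3 (flbB), from 5 to 1 (labelled flbD), from 7 to 1 (flbE), from 3 to 1 (swi6), from 7 to 2 (wetA). There, lower differences in other lists went from 3 to 0 (auxiliary beta-oxidation), from 16 to 5 (other peroxisome genes). Comparing each library with the median of the other 9 members higher went from 5 to 8 (flbC), from 1 to 0 (labelled flbD). There, higher differences in other lists went from 15 to 5 (glyoxylate cycle), from 1 to 3 (methylcitrate cycle), from 22 to 9 (other peroxisome genes). There, members lower went from 1 to 0 (labelled abaA), from 6 to 2 (flbB), from 5 to 0 (labelled flbD), from 7 to 0 (flbE), from 7 to 1 (wetA). There, lower differences in other lists went from 3 to 5 (auxiliary beta-oxidation), from 24 to 6 (lipid release), from 9 to 4 (methylcitrate cycle), from 16 to 4 (other peroxisome genes). With a pseudocount of 0.1 members higher went from 1 to 2 (labelled flbD). There, members lower went from 1 to 2 (labelled abaA), from 6 to 10 (flbB). Counting only intervals beyond 2-fold members higher went from 1 to 0 (labelled flbD), from 4 to 2 (stuA), from 3 to 1 (wetA). There, members lower went from 1 to 0 (flbC), from 5 to 2 (labelled flbD), from 7 to 3 (flbE), from 3 to 0 (swi6), from 7 to 2 (wetA). With totals without PDE_06605, chosen after seeing the data members higher went from 1 to 0 (labelled flbD), from 3 to 1 (wetA). There, higher differences in other lists went from 8 to 5 (lipid release). There, members lower went from 1 to 4 (labelled abaA), from 8 to 5 (flbA), from 6 to 10 (flbB), from 7 to 11 (flbE), from 0 to 2 (stuA). With a pseudocount of 5 members higher went from 3 to 1 (wetA). There, higher differences in other lists went from 8 to 5 (lipid release). There, members lower went from 1 to 0 (flbC), from 5 to 2 (labelled flbD), from 7 to 4 (flbE), from 3 to 0 (swi6), from 7 to 4 (wetA). Searching the product description alone found 0 members, so it gave no value. Without the flbA deletion library the counts of members 2-fold apart in every library stayed at 0. Depth limits members with few reads, such as PDE_05098 with 4 reads in the flbA and PDE_08185 with 8 reads in the swi6 deletion library.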

Other observations

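Of the fatty acid synthase genes, PDE_01217 with PDE_01220 and PDE_01451 with PDE_01453 formed pairs of near locus numbers whose patterns differed in the swi6 deletion library. A further beta subunit, PDE_02137 (3.47 RPKM in wild type), had no alpha subunit near it in the list. These genes were chosen after their values were seen, except PDE_01217. PDE_01217 (alpha subunit) and PDE_01220 (beta subunit) had 396 and 330.2 RPKM in the swi6 deletion library against 35.5 and 112 in wild type. PDE_01451 (alpha) and PDE_01453 (beta) were instead at wild-type level in the swi6 deletion library, at 28.6 and 18.6 RPKM, and highest in the flbA deletion library, at 118 and 106 RPKM. PDE_01217 and PDE_01220 were also above wild type in the flbA deletion library, at 125 and 274 RPKM. A branched-chain aminotransferase 2 locus numbers before PDE_01217, PDE_01215, had 131 RPKM in wild type and 883 in the swi6 deletion library.

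Among 465 pairs of kept members, the profiles over 10 libraries of the carnitine/acylcarnitine transporter PDE_02645 and the dehydrogenase PDE_01207 were the most alike. Their Pearson correlation of log2(RPKM + 1) was 0.953, and 0.920 over the 9 libraries left without the flbA deletion library. The pair was picked as the highest of all, the 2 genes share each library's scaling, and the value is a description without a test.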
